A study of Schizosaccharomyces pombe with 24 samples.

Results

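The fission yeast genes followed here are put4, SPAC869.03c, SPAC869.04, SPAC869.01 and yhb1 (SPAC869.02c), of which 4 serve nitrogen use and yhb1 serves defence against nitric oxide. They are 5 of the 6877 genes counted, and all 5 passed the filter on low counts that left 5664 genes for testing. They share the prefix SPAC869 in their systematic names. They were chosen by these measured levels, as RNA that was higher after nitrogen was removed and lower in clr4D cells than in wt cells, so differences between strains and times are given for them as descriptions. Counts of members past a threshold are printed beside the share of all genes past it, and nothing is read from them. Total RNA depleted of ribosomal RNA was sequenced from 2 strains. The clr4D strain is 975 h+ with clr4 replaced by a NatMX6 cassette (clr4D::NatMX6), and the wt strain is 975 h+. Cells growing in defined medium with a nitrogen source were washed and held in the same medium without nitrogen. They were sampled at 0, 1, 2, 4, 10 and 24 h. There were 2 libraries for each of the 12 combinations of strain and time, 24 in all, described by the submitters as biological replicates.

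Fission yeast prefers ammonium or glutamate as nitrogen source and represses genes for poorer sources while these last. When nitrogen runs out, GATA factors such as Gaf1 switch on carriers and enzymes that bring in amino acids, peptides, urea and amides and release ammonium from them. Haploid cells that find no mating partner then stop dividing and enter quiescence. Clr4 is the SUV39H-type enzyme that methylates lysine 9 of histone H3, the mark of heterochromatin at centromeres, telomeres and the mating-type locus. The series title names its deployment in euchromatin as a need of quiescent cells. The SPAC869 genes lie towards the end of a chromosome 1 arm, on the inner side of the SPAC186 genes.

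Libraries held 637723 to 4427020 reads in genes. Levels are CPM, counts per 1e6 gene reads after edgeR's TMM scaling of the libraries, given as replicate 1 and replicate 2 or as mean ± SD (n = 2), and are not comparable between genes because they are not divided by length. The clr4 feature had reads in every clr4D library, and its mean was lower in clr4D cells than in wt cells at no time. It was called higher at 0 h (337 ± 84.7 CPM in clr4D cells and 130 ± 58.2 CPM in wt cells), 1 h (385 ± 59.6 CPM in clr4D cells and 108 ± 20.8 CPM in wt cells) and 24 h (188 ± 30.7 CPM in clr4D cells and 95.4 ± 8.16 CPM in wt cells). At 2, 4 and 10 h its means were 119 to 132 CPM in clr4D cells and 110 to 118 CPM in wt cells. Which stretch of the feature these reads come from is not given by gene counts, so this check does not test the labels. The second wt library at 4 h stood apart from the first, with 109516 against 46609 CPM summed over 141 genes, called ribosomal protein genes here. They were taken by symbols starting with rpl, rps or rpp, which also took in rpp1, rpp21 and rpp40, for RNase P or RNase MRP subunits. For the differences between strains at 4 h, values without this second wt library are given where they move the count or the call. The strains are of the P mating type (h+). The summed level of 7 M-cell genes was 131 to 295 CPM at 0 and 1 h and 2222 to 9101 CPM from 2 h on in clr4D cells, and 102 to 152 CPM in wt cells throughout. Among them, mat1-Mc and mat1-Mi were at 0 reads in every library. Reads that aligned to more than 1 place were not counted for any gene. The 0 reads thus do not show that mat1-Mc and mat1-Mi were silent. The summed level of 14 meiosis and spore genes was 7588 to 15843 CPM in clr4D cells at 10 and 24 h, and 120 to 287 CPM in wt cells at all times. The part of these shifts in the results below was not tested. In bulk RNA, fewer cells expressing a gene and less RNA per cell cannot be told apart.

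put4 encodes the proline transporter of the plasma membrane. Starting from a moderate level in growing cells, it was high within 1 h in both strains and then ran lower in clr4D cells while wt cells kept it up. In clr4D cells put4 had 128 and 116 CPM at 0 h, 1619 and 1498 CPM at 1 h, 1356 and 1125 CPM at 2 h, 806 and 878 CPM at 4 h, 726 and 835 CPM at 10 h, and 1124 and 1168 CPM at 24 h. In wt cells it had 143 and 128 CPM at 0 h, 1885 and 1845 CPM at 1 h, 1819 and 1683 CPM at 2 h, 1791 and 1452 CPM at 4 h, 2166 and 1932 CPM at 10 h, and 2075 and 2068 CPM at 24 h. The strains did not overlap at any time, but they nearly touched at 0 h, and the gap was widest at 10 h. The 1 h mean was 12.8-fold the 0 h mean in clr4D cells and 13.7-fold in wt cells. The clr4D mean was 83.5% of the wt mean at 1 h, 70.8% at 2 h, 51.9% at 4 h, 38.1% at 10 h and 55.3% at 24 h. On the log2 scale the difference, clr4D minus wt, was −0.26 ± 0.17 at 1 h, −0.95 ± 0.18 at 4 h and −1.39 ± 0.18 at 10 h (estimate ± SE). Within clr4D cells the libraries of 4 h and 10 h overlapped, as did those of 2 h and 24 h. Within wt cells the 2 h and 4 h libraries overlapped, and so did the 10 h and 24 h libraries.

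SPAC869.03c is annotated as a urea transporter. Urea taken up by the cell is split by urease into ammonia and carbon dioxide. Its RNA was close to absent in growing cells of both strains and climbed through the whole course in clr4D cells, from a lower first step than in wt cells. In clr4D cells it had 1.39 and 4.36 CPM at 0 h, 91.5 and 145 CPM at 1 h, 262 and 264 CPM at 2 h, 357 and 378 CPM at 4 h, 902 and 1185 CPM at 10 h, and 1876 and 2005 CPM at 24 h. In wt cells it had 1.80 and 3.60 CPM at 0 h, 420 and 477 CPM at 1 h, 1081 and 1393 CPM at 2 h, 2148 and 1956 CPM at 4 h, 4521 and 3647 CPM at 10 h, and 3893 and 3669 CPM at 24 h. The strains overlapped at 0 h and were apart at each later time, by the widest ratio at 4 h. The clr4D mean was 26.4% of the wt mean at 1 h, 17.9% at 4 h and 51.3% at 24 h. The log2 difference, clr4D minus wt, was −1.92 ± 0.24 at 1 h, −2.48 ± 0.22 at 4 h and −0.96 ± 0.21 at 24 h. No 2 times overlapped in clr4D cells, whereas in wt cells the 10 h and 24 h libraries did.

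SPAC869.04 encodes a formamidase-like protein. Formamidases split formamide into formate and ammonium. Its course was nearly that of its neighbour SPAC869.03c. In clr4D cells it had 2.09 and 8.73 CPM at 0 h, 126 and 154 CPM at 1 h, 266 and 311 CPM at 2 h, 373 and 431 CPM at 4 h, 792 and 1217 CPM at 10 h, and 2113 and 2803 CPM at 24 h. In wt cells it had 0.902 and 4.80 CPM at 0 h, 514 and 520 CPM at 1 h, 1202 and 1488 CPM at 2 h, 2208 and 2678 CPM at 4 h, 4760 and 4541 CPM at 10 h, and 5223 and 5557 CPM at 24 h. The strains overlapped at 0 h and at no later time, and within each strain no later times overlapped. The wt mean was 3.69 times the clr4D mean at 1 h, 6.08 times at 4 h, 4.63 times at 10 h and 2.19 times at 24 h. The log2 difference, clr4D minus wt, was −1.88 ± 0.27 at 1 h, −2.60 ± 0.26 at 4 h and −1.13 ± 0.24 at 24 h. At 24 h the clr4D libraries stood where the wt libraries had been at 4 h, with 2458 ± 488 CPM in clr4D cells at 24 h beside 2443 ± 332 CPM in wt cells at 4 h. For SPAC869.03c the same pairing gave 1940 ± 91.3 CPM in clr4D cells at 24 h beside 2052 ± 136 CPM in wt cells at 4 h. Without the first clr4D library of 24 h, the log2 difference at 24 h was −0.92 for SPAC869.04 and −0.89 for SPAC869.03c.

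SPAC869.01 is annotated as an amidase, an enzyme class that splits amide bonds and can release ammonium. It had no read in any 0 h library of either strain, which over 2 libraries allows up to 1.58 CPM in clr4D cells and 1.55 CPM in wt cells (3 reads, counting error only). In clr4D cells it had 9.42 and 23.1 CPM at 1 h, 5.42 and 8.97 CPM at 2 h, 4.84 and 1.60 CPM at 4 h, 2.79 and 3.15 CPM at 10 h, and 2.43 and 0.439 CPM at 24 h. In wt cells it had 80.1 and 117 CPM at 1 h, 92.7 and 119 CPM at 2 h, 69.3 and 58.7 CPM at 4 h, 85.9 and 111 CPM at 10 h, and 46.7 and 64.6 CPM at 24 h. It was thus highest in clr4D cells at 1 h and lower at each later time in the mean, down to 6 reads over both 24 h libraries, while its means in wt cells lay between 55.7 and 106 CPM, with the 4 h and 24 h libraries below those of 1, 2 and 10 h. Against the limit set by the empty 0 h libraries, the level at 1 h was at least 10.3-fold higher in clr4D cells and at least 63.6-fold higher in wt cells. At 10 h it was at least 1.88-fold higher in clr4D cells and at least 63.6-fold higher in wt cells, and at 24 h it was under that limit in clr4D cells. The clr4D mean was 16.5% of the wt mean at 1 h, 6.79% at 2 h, 5.03% at 4 h, 3.02% at 10 h and 2.57% at 24 h. The log2 difference, clr4D minus wt, was −2.49 ± 0.36 at 1 h, −4.41 ± 0.47 at 4 h and −5.26 ± 0.45 at 24 h. With so few reads in clr4D cells these sizes hang on single libraries. The 24 h difference was −6.74 without the first clr4D library and −4.47 without the second, the 4 h difference was −5.32 and −3.77 in the same way, and the 1 h difference was −3.29 without the second clr4D library.

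yhb1 encodes the nitric oxide dioxygenase, a flavohaemoglobin that turns nitric oxide into nitrate and so protects cells from it. It was the member expressed before starvation at the level nearest to its later ones. In clr4D cells it had 36.9 and 32.7 CPM at 0 h, 36.3 and 42.4 CPM at 1 h, 57.5 and 42.8 CPM at 2 h, 46.5 and 31.9 CPM at 4 h, 60.9 and 78.8 CPM at 10 h, and 144 and 137 CPM at 24 h. In wt cells it had 60.5 and 64.8 CPM at 0 h, 95.9 and 123 CPM at 1 h, 116 and 143 CPM at 2 h, 111 and 104 CPM at 4 h, 131 and 137 CPM at 10 h, and 166 and 180 CPM at 24 h. The strains did not overlap at any time, 0 h included. In clr4D cells the 1 h and 4 h libraries overlapped those of 0 h, and the 24 h libraries were above all others. In wt cells the 1 h, 2 h and 4 h libraries overlapped in part, and all were above 0 h. At 24 h the mean was 4.03-fold the 0 h mean in clr4D cells and 2.76-fold in wt cells. The clr4D mean was 55.6% of the wt mean at 0 h, 36.0% at 1 h, 36.6% at 4 h and 81.2% at 24 h. The log2 difference, clr4D minus wt, was −0.80 ± 0.23 at 0 h, −1.49 ± 0.19 at 4 h and −0.30 ± 0.14 at 24 h.

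**Figure D1:**
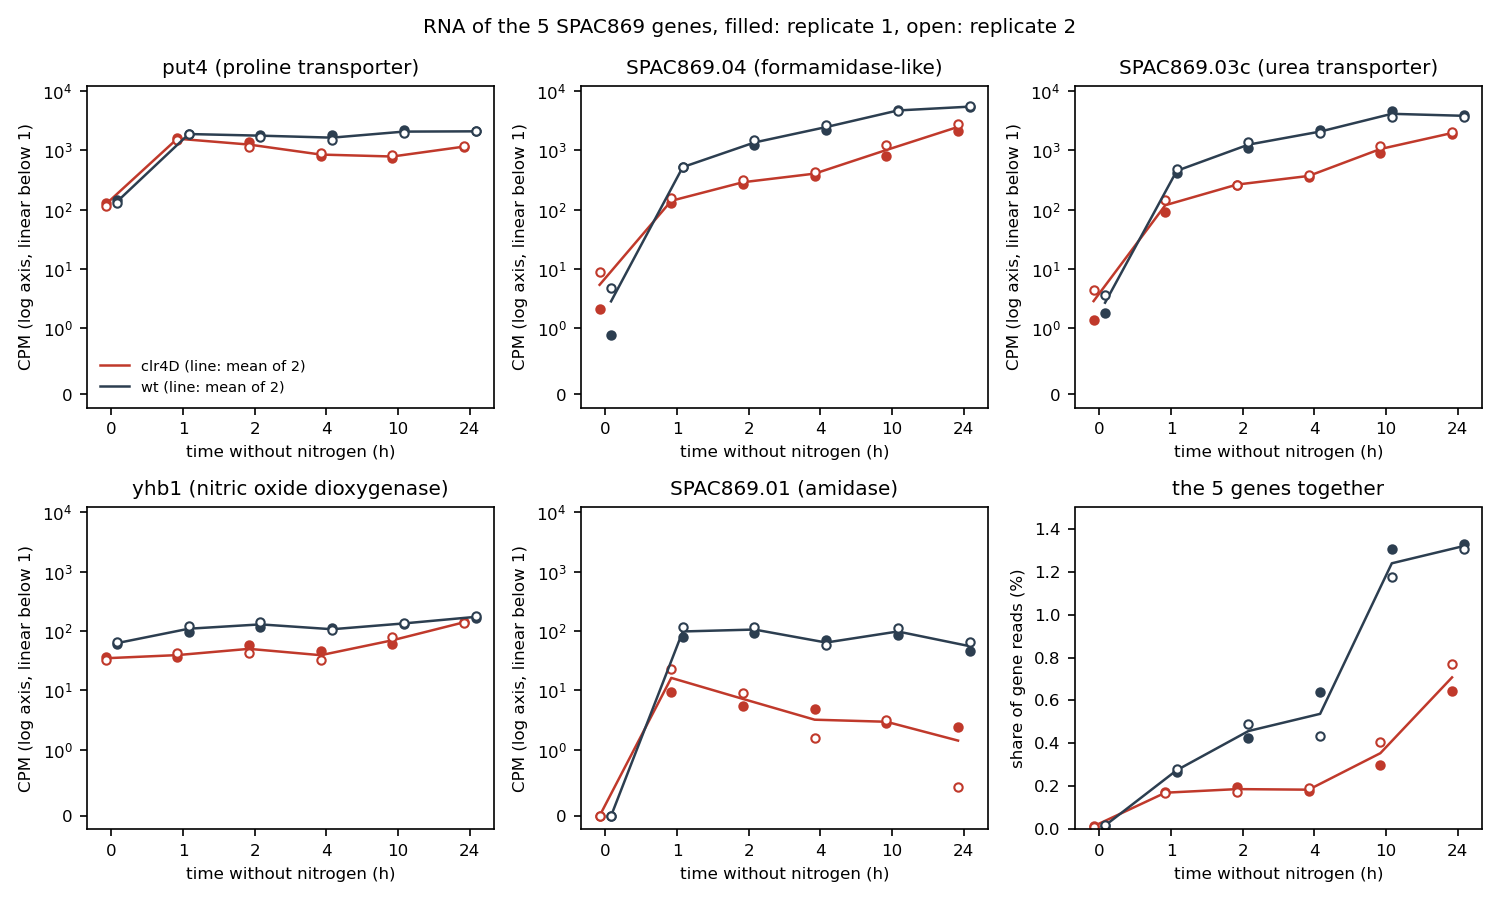
Level of each of the 5 genes in CPM (vertical, log axis that is linear below 1) at each time without nitrogen (horizontal, in h, evenly spaced), for clr4D (red) and wt (dark), with points for single libraries and lines for the mean of 2. The lower right panel gives the share of all gene reads held by the 5 genes together, 0.708% in clr4D and 1.32% in wt at 24 h.

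Together the 5 genes held 0.0133% of gene reads in clr4D cells and 0.0167% in wt cells at 0 h. At 4 h they held 0.184% in clr4D cells and 0.538% in wt cells (0.641% and 0.434% in the 2 libraries), and at 24 h 0.708% in clr4D cells and 1.32% in wt cells. Most of this was SPAC869.04, SPAC869.03c and put4. A gene is called below when its Benjamini-Hochberg adjusted p, over the 5664 tested genes of a comparison, was under 0.05 in edgeR's quasi-likelihood test. Against 0 h, 5 of 5 members were called higher in wt cells at every later time, when 26.5%, 26.4%, 25.2%, 23.6% and 23.7% of tested genes were called higher at 1, 2, 4, 10 and 24 h. In clr4D cells 4, 4, 3, 5 and 4 members were called higher at those times, beside 26.4%, 26%, 24.3%, 27.4% and 25.4% of tested genes. Those not called in clr4D cells were yhb1 at 1, 2 and 4 h and SPAC869.01 at 4 and 24 h. With each library left out in turn, the count in clr4D cells was 3 to 5 at 2 h and 3 to 4 at 4 h, and it was 4 at 10 h whichever library was left out, since SPAC869.01 was then not called.

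Between the strains, members called lower in clr4D cells were 0 of 5 at 0 h, when 0.0353% of tested genes were called lower. They were 4 of 5 at 1 h beside 0.212%, 4 at 2 h beside 0.23%, 5 at 4 h beside 9.82% (2.96% without the second wt library of 4 h), 5 at 10 h beside 12% and 4 at 24 h beside 3.16%. Since these contrasts chose the members, the counts are a description. No member was called higher in clr4D cells at 0, 1, 2, 4, 10 or 24 h, when 0.194%, 0.459%, 1.32%, 5.19%, 12% and 5.63% of tested genes were. The median log2 difference of the 5 was −0.15 at 0 h, −1.88 at 1 h, −2.22 at 2 h, −2.48 at 4 h, −1.97 at 10 h and −0.96 at 24 h. Over all tested genes the median was 0.01 at 0 h, −0.01 at 1 h, 0.00 at 2 h, −0.03 at 4 h, −0.02 at 10 h and −0.03 at 24 h. Without the second wt library of 4 h, all 5 were still called lower at 4 h and their median was −2.45, with −4.46 for SPAC869.01, −2.54 for SPAC869.03c, −2.45 for SPAC869.04, −1.51 for yhb1 and −1.08 for put4.

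**Figure D2:**
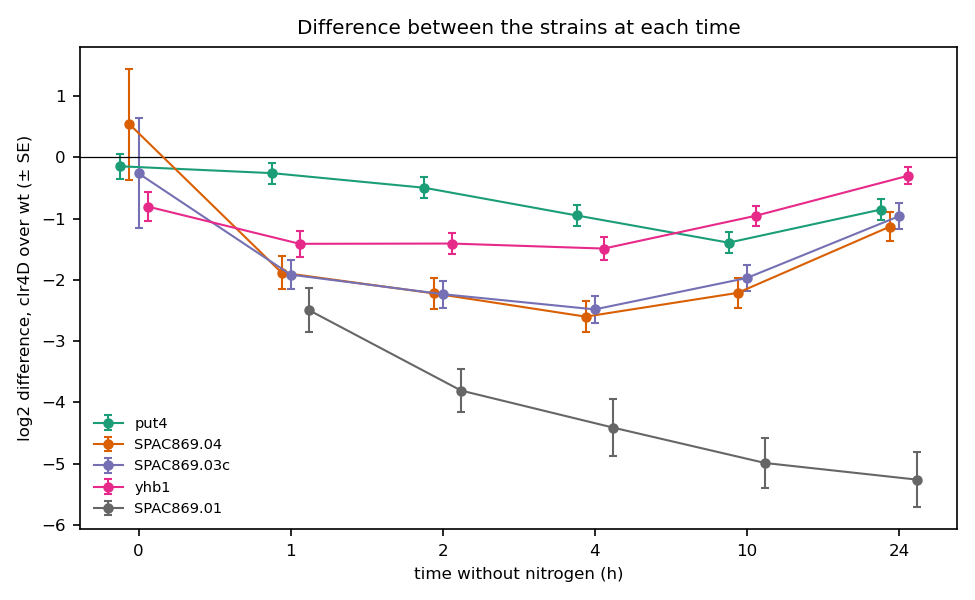
Log2 difference between the strains, clr4D over wt (vertical), at each time without nitrogen (horizontal, in h), for each of the 5 genes, with SE from the fit as bars. SPAC869.03c and SPAC869.04 run together with a low at 4 h, SPAC869.01 moves on down to −5.26 at 24 h, and put4 reaches its low of −1.39 at 10 h. SPAC869.01 has no point at 0 h, where it had no reads.

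At 1 and 2 h few genes were called lower. There were 12 genes called lower in clr4D cells at 1 h and 13 at 2 h, and 4 in each count were SPAC869.01, SPAC869.03c, SPAC869.04 and yhb1. Named after their values were seen, the other 8 at 1 h included hht1 and hhf1, for histones H3 and H4, the transporter gene thi7, and cdd1, for a cytidine deaminase. hht1 had 576 ± 66.2 CPM in clr4D cells and 1271 ± 213 CPM in wt cells at 1 h (log2 difference −1.15, adjusted p = 2.3e-04). Histone genes have near-identical copies, so reads of hht1 and hhf1 may be split among them. The other 9 at 2 h included hht1 and hhf1 again, the histone H2A gene hta2, the L-asparaginase gene SPBPB21E7.09 and SPAC922.06, which lies just beyond atd2 on the centromere side. Ordered from the lowest log2 difference among all tested genes, SPAC869.01 was at place 24 at 1 h, 2 at 2 h and 1 at 4, 10 and 24 h. From 1 h on, SPAC869.03c and SPAC869.04 were at places 7 to 36, yhb1 at places 20 (2 h) to 901 (24 h), and put4 at places 875 (1 h) to 46 (24 h). The members were chosen by this same contrast, so their calls and places are a description and nothing is read from them.

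The 5 members do not form 1 unbroken block. In the reference gene order, from the centromere side, come atd2, cat1, put4, SPAC869.09, pcm2, mel1, hry1, sul2, SPAC869.04, SPAC869.03c, yhb1 and SPAC869.01, followed by pfl9 and the other SPAC186 genes on the telomere side. The 6 other SPAC869 coding genes thus stand between put4 and the remaining 4 members or, for cat1, beyond put4. None of the 6 was called between the strains at 0, 1, 2 or 4 h by edgeR, where 0 had an unadjusted p under 0.05, or by DESeq2. At those times 0.23%, 0.671%, 1.55% and 15% of tested genes were called in either direction (6.86% at 4 h without its second wt library), and 23.9% and 8.79% at 10 and 24 h. At 10 h mel1, for the alpha-galactosidase melibiase, fell to 51.7 ± 5.99 CPM in clr4D cells, against 92.2 ± 8.38 CPM in wt cells (log2 −0.87, adjusted p = 0.0013). The sulfate transporter gene sul2 fell to 204 ± 47.4 CPM in clr4D cells, against 399 ± 56.1 CPM in wt cells (log2 −0.98, adjusted p = 0.0093). All 6 were lower in clr4D cells at 10 h, with log2 differences from −1.72 to −0.54 and a median of −0.92. The members yhb1 and put4 were at −0.95 and −1.39 then. SPAC869.09 (−1.72 ± 0.84) and hry1 (−1.48 ± 0.86) had a wide SE and were not called by edgeR. DESeq2 called 3 of the 6 at 10 h. At 24 h mel1 was the 1 gene called, at 56.1 ± 3.02 CPM in clr4D cells and 84.8 ± 3.38 CPM in wt cells (log2 −0.60, adjusted p = 0.025). Leaving out the first wt library of 10 h gave adjusted p = 0.058 for mel1 and 0.11 for sul2, and sul2 was also lost without the first clr4D library of 10 h (0.15). The 24 h call of mel1 was lost when any 1 of its 4 libraries was left out.

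Starvation also switched on 4 of these neighbours, and none of them was called between the strains at 1 h. SPAC869.09, for a Con-6 family protein, had 381 ± 167 CPM in clr4D cells and 398 ± 99.5 CPM in wt cells at 1 h, when 0 h levels were 0.348 ± 0.492 CPM in clr4D cells and 0.60 ± 0.849 CPM in wt cells. mel1 had 114 ± 10.3 CPM in clr4D cells and 138 ± 1.25 CPM in wt cells at 1 h. pcm2, for a methyltransferase that repairs isoaspartate in proteins, had 49.5 ± 11.9 CPM in clr4D cells and 51.9 ± 1.13 CPM in wt cells at 1 h. hry1, for a protein with a cation-binding domain, had 127 ± 16.3 CPM in clr4D cells and 145 ± 29.0 CPM in wt cells. These 4 were called higher than at 0 h in both strains at 1, 2 and 4 h, and their means were lower at 10 h than at 2 h, unlike those of SPAC869.03c and SPAC869.04. cat1, for an arginine and lysine carrier, and sul2 were called lower than at 0 h at each later time in both strains. cat1, the coding gene next to put4, had 48.1 ± 2.58 CPM in clr4D cells and 38.8 ± 3.30 CPM in wt cells at 2 h, beside 0 h levels of 132 ± 1.02 CPM in clr4D cells and 153 ± 3.67 CPM in wt cells.

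**Figure D3:**
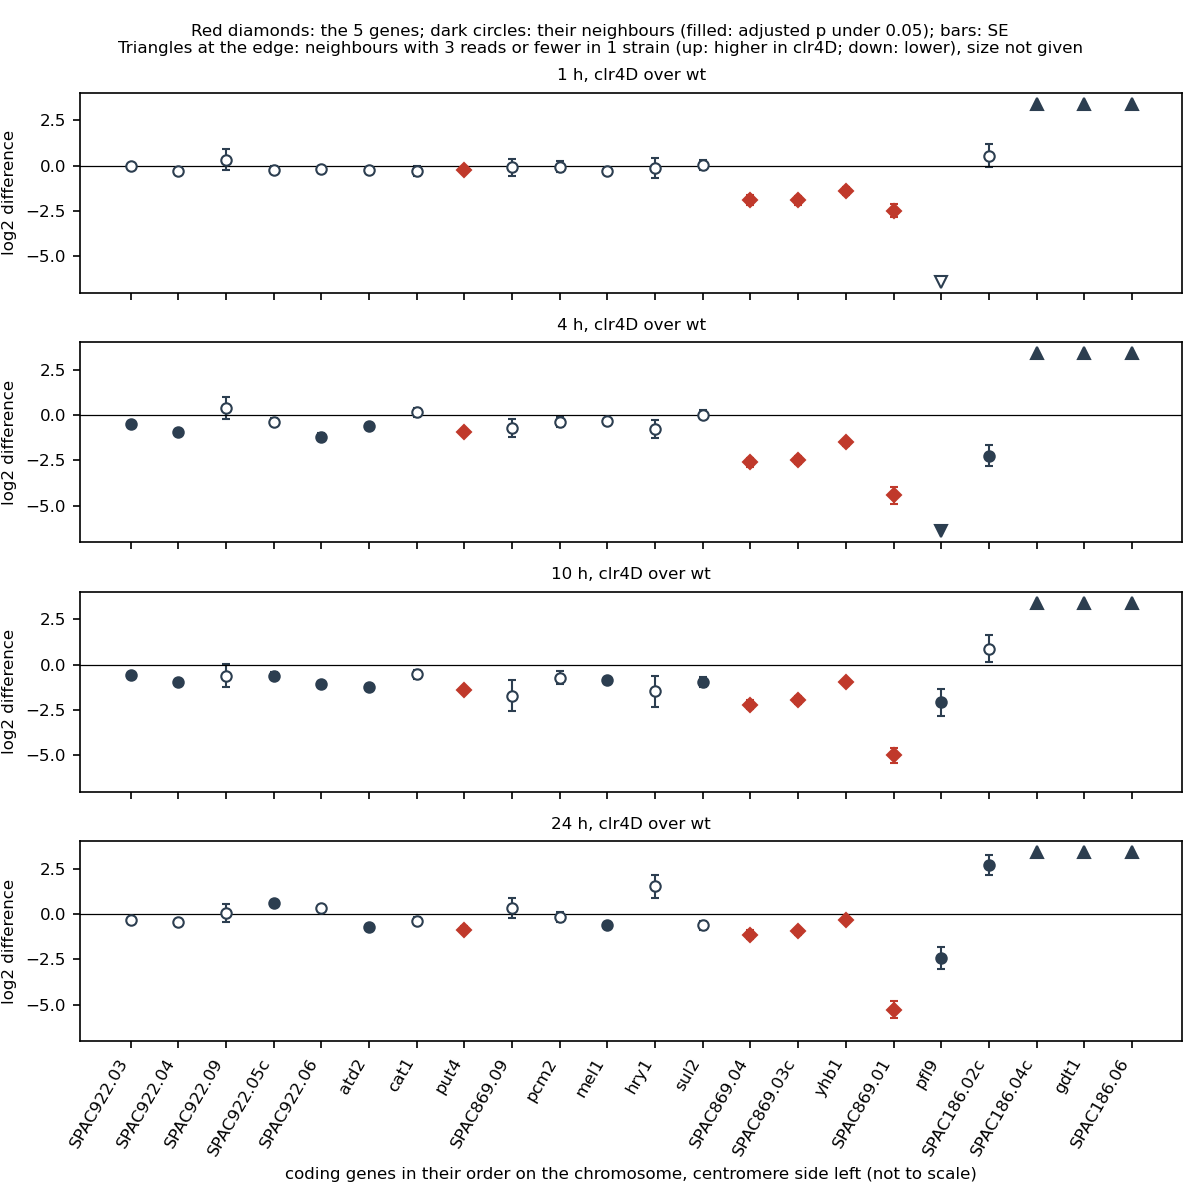
Log2 difference, clr4D over wt (vertical, bars show SE), of coding genes in their order on the chromosome (horizontal, not to scale, centromere side left) at 1, 4, 10 and 24 h. Red diamonds are the 5 members and dark circles their neighbours, filled where called. Points are drawn where each strain had more than 3 reads and 1 strain had at least 10, and triangles at the edge mark the direction of neighbours with 3 reads or fewer in 1 strain. At 1 h 4 of the 5 diamonds lie between −1.41 and −2.49, no circle is filled, and SPAC186.04c, gdt1 and SPAC186.06 at the telomere end are called higher.

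Beyond cat1 on the centromere side, 7 of the 10 flanking features could be tested. Of these, 0 were called between the strains at 0 and 1 h by edgeR, where 0 had an unadjusted p under 0.05, or by DESeq2. In edgeR 1 was called lower at 2 h, 4 at 4 h and 5 at 10 h. At 10 h they were atd2, for an aldehyde dehydrogenase (log2 −1.24), SPAC922.06, annotated as a reductase (−1.08), SPAC922.04 (−0.98), the transporter gene SPAC922.05c (−0.63) and the deaminase gene SPAC922.03 (−0.58). At 24 h atd2 was called lower (−0.71) and SPAC922.05c higher (0.61) in clr4D cells. With each library of a comparison left out in turn, the calls of atd2, SPAC922.06, SPAC922.04 and SPAC922.03 at 10 h were not lost, while both calls of SPAC922.05c and the 24 h call of atd2 were (adjusted p up to 0.16 and 0.13). The 2 h call, that of SPAC922.06, was lost without any of 3 libraries, and of the 4 h calls those of atd2 and SPAC922.03 were lost and those of SPAC922.06 and SPAC922.04 were not. On the telomere side 5 of 10 features could be tested. gdt1, for a GDT1-like protein, had 67.8 ± 6.91 CPM in clr4D cells and 0.196 ± 0.278 CPM in wt cells at 1 h, and 42.6 ± 0.545 CPM in clr4D cells and 0.166 ± 0.235 CPM in wt cells at 24 h. SPAC186.06 and SPAC186.04c had 46.8 ± 2.79 and 17.9 ± 3.90 CPM in clr4D cells at 2 h, and no read in wt cells. Each of these 3 was called higher at 1, 2, 4, 10 and 24 h, except that the 1 h call of SPAC186.04c was lost without the first wt (adjusted p = 0.74) or the second clr4D library (0.30). Already at 0 h gdt1 was called higher, with 3 reads or fewer in wt cells, a call lost without the first wt library of 0 h. Between these 3 genes and SPAC869.01 lie the tested genes pfl9 and SPAC186.02c, which had few reads, and the asparaginase gene SPAC186.03, which was not tested. pfl9, for a cell surface glycoprotein, was called lower at 4, 10 and 24 h, with 1.61 ± 0.211 CPM in clr4D cells and 8.94 ± 2.43 CPM in wt cells at 24 h. SPAC186.02c was called lower at 4 h and higher at 24 h, with 15.8 ± 10.6 CPM in clr4D cells and 2.26 ± 1.04 CPM in wt cells at 24 h. All 5 of these calls were lost without 1 library or another, among them the 24 h call of pfl9 without the second wt library (adjusted p = 0.15) and that of SPAC186.02c without the first clr4D library (0.13).

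Between the SPAC869 genes 7 long non-coding RNAs are annotated, and 3 had enough reads to be tested. SPNCRNA.280, SPNCRNA.281 and SPNCRNA.282, which lie between SPAC869.03c and yhb1, had at most 2 reads in any library. SPNCRNA.1091, between cat1 and put4, was the 1 called between the strains, with 4.32 ± 0.579 CPM in clr4D cells and 16.5 ± 6.11 CPM in wt cells at 10 h (log2 −2.05, adjusted p = 0.0058). SPAC869.04 and SPAC869.03c are neighbours on opposite strands. The libraries are directional, but the strand setting of the counting is not given in the sources used here, so reads running from 1 gene into the other cannot be told apart.

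The other genes for nitrogen uptake and use were taken as a list of 35, of which 34 were tested. cat1 is on it, and the 5 members are not. At 1 h 0 of 34 were called between the strains by edgeR or DESeq2, and 3 had an unadjusted p under 0.05 in edgeR. At 2 h 1 was called lower, SPBPB21E7.09, a call lost without the second wt (adjusted p = 0.28) or the second clr4D library of 2 h (0.29). At 4 h 17 of 34 were called lower in clr4D cells and 0 higher, and at 10 h 15 were called lower and 0 higher, when 9.82% and 12% of all tested genes were called lower. Other lists were lower too: of 141 ribosomal protein genes 107 were called lower at 4 h and 49 at 10 h (median log2 −1.08 and −0.78), and of 15 glycolysis genes 11 at 4 h and 3 at 10 h (−1.14 and −0.64). At 24 h 5 of 34 listed nitrogen genes were called lower and 1 higher, when 3.16% and 5.63% of all tested genes were. The median log2 difference of the list was −0.02 at 1 h, −0.07 at 2 h, −0.51 at 4 h, −0.49 at 10 h and −0.27 at 24 h, beside the medians over all tested genes given above. Without the second wt library of 4 h the median of the list at 4 h was −0.31, and without the first it was −0.87. Over all tested genes these medians were −0.02 and 0.03. Without the second, the 4 h median was −0.44 for ribosomal protein genes and −0.42 for glycolysis genes, and most of the 4 h calls of both these lists were lost. A fit of the 4 libraries of 4 h alone called 0 genes of the nitrogen list and 92 genes in all.

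By role, 9 of 11 transporters were called lower at 4 h and 7 at 10 h, and 8 of 17 tested genes of breakdown and assimilation at 4 h and 7 at 10 h. Without the second wt library of 4 h, 4 transporters and 5 genes of breakdown and assimilation were called lower at 4 h. At 4 h the glutamine synthetase gene gln1 had 596 ± 39.7 CPM in clr4D cells and 2164 ± 1408 CPM in wt cells (log2 −1.85, adjusted p = 6.4e-04). SPBC23G7.13c, another urea transporter gene, had 32.8 ± 13.5 CPM in clr4D cells and 123 ± 66 CPM in wt cells at 4 h (log2 −1.57, adjusted p = 0.021). The ammonium transporter gene amt1 had 799 ± 87.5 CPM in clr4D cells and 2284 ± 1549 CPM in wt cells (log2 −1.50, adjusted p = 0.0011). Without the second wt library of 4 h the log2 difference was −0.96 for gln1 and −0.56 for amt1, both still called, and SPBC23G7.13c was not called (adjusted p = 0.064). Without the first, SPBC23G7.13c was at −2.33. At 10 h SPBC23G7.13c had 47.6 ± 4.07 CPM in clr4D cells and 176 ± 8.09 CPM in wt cells (log2 −1.89, adjusted p = 8.5e-04). The asparaginase gene SPBPB21E7.09 had 47.9 ± 1.37 CPM in clr4D cells and 139 ± 23.4 CPM in wt cells at 10 h (log2 −1.57). uga1, for the transaminase that uses gamma-aminobutyrate, had 77.6 ± 11.8 CPM in clr4D cells and 223 ± 15.7 CPM in wt cells (log2 −1.53). None of these 3 calls at 10 h was lost by leaving out a library. Fission yeast has near-identical asparaginase genes, so reads of SPBPB21E7.09 may be split among copies. At 24 h SPBC23G7.13c (log2 −1.15), SPBPB21E7.09 (−1.02) and the vacuolar amino acid carrier gene fnx2 (−0.67) were called lower, the first of them not without the second wt library of 24 h (adjusted p = 0.26) or either clr4D library (0.18 and 0.076). The ammonium transporter gene amt3 was higher at 24 h, with 29.5 ± 12.5 CPM in clr4D cells and 10.2 ± 1.70 CPM in wt cells (log2 1.52, adjusted p = 0.0063), a call lost without the first clr4D or the second wt library of 24 h.

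Genes of the pathways that the members feed were on the list. SPBC23G7.13c, the second urea transporter gene, had a log2 difference of −0.31 at 1 h, where that of SPAC869.03c was −1.92, and this gap was not tested. ure2, for urease, had 298 ± 5.28 CPM in clr4D cells and 538 ± 130 CPM in wt cells at 4 h (log2 −0.83, adjusted p = 0.0033), and without the second wt library of 4 h the log2 difference was −0.57 (adjusted p = 0.041). put1 and put2, for the enzymes that turn proline into glutamate, were called lower at 4 h and 10 h beside put4. Without the second wt library of 4 h neither was called at 4 h (adjusted p = 0.17 for put1 and 0.23 for put2). put1 had 455 ± 20.9 CPM in clr4D cells and 872 ± 30.5 CPM in wt cells at 10 h (log2 −0.94). put2 had 381 ± 30.2 CPM in clr4D cells and 600 ± 56.9 CPM in wt cells at 10 h (log2 −0.66), a call lost without the first wt or the first clr4D library of 10 h (adjusted p = 0.16 for both). gaf1, for the GATA factor, had 449 ± 50.05 CPM in clr4D cells and 638 ± 56.2 CPM in wt cells at 10 h (log2 −0.51, adjusted p = 0.035), and its log2 difference at 4 h was −0.51 with adjusted p = 0.051. The 10 h call of gaf1 was lost without the first clr4D library (0.28) or either wt library, and with DESeq2 (0.051).

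In wt cells at 24 h against 0 h, 21 of the 34 listed genes were called higher and 8 lower, beside 23.7% and 28.6% of tested genes. The largest rises were isp5, an amino acid carrier gene, at 2960 ± 265 CPM at 24 h and 32.6 ± 1.43 CPM at 0 h (log2 6.51), isp4, an oligopeptide carrier gene (6.40), and xan1, for a xanthine dioxygenase (4.62). The largest falls were the asparaginase gene SPAC977.12 (log2 −2.26) and the arginine breakdown genes aru1 (−2.20) and car2 (−2.08). For SPAC869.04 and SPAC869.03c the same comparison gave log2 10.98 ± 0.44 and 10.47 ± 0.38, over 0 h levels of a few reads. For SPAC869.04 this was 10.11 without the first wt library of 0 h and 12.42 without the second.

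**Figure D4:**
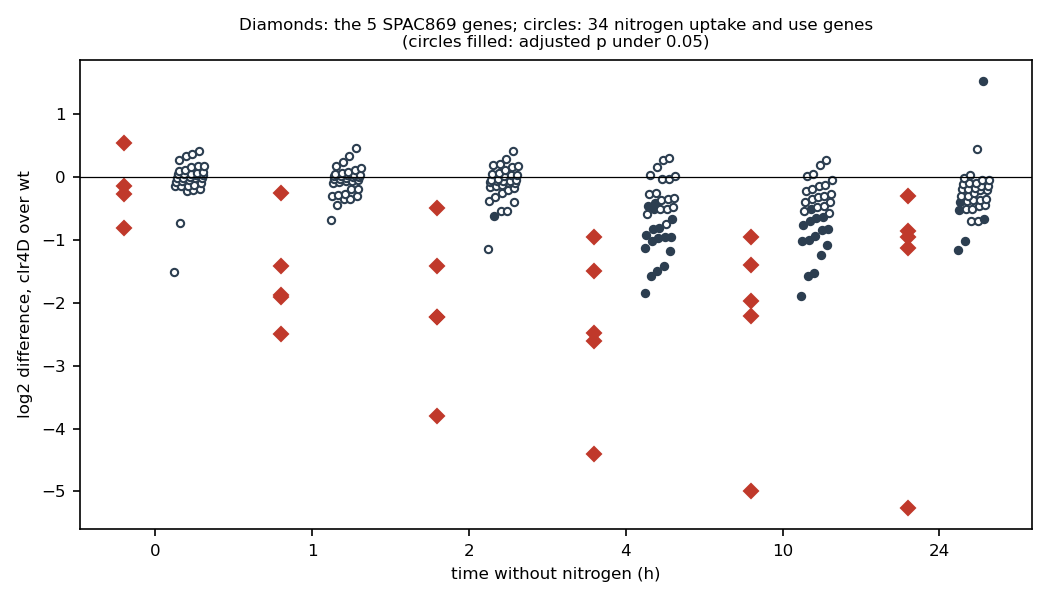
Log2 difference, clr4D over wt (vertical), at each time without nitrogen (horizontal, in h). Red diamonds are the 5 SPAC869 genes and dark circles the 34 tested genes of nitrogen uptake and use, filled where called. At 1 and 2 h the list is centred near 0 with 4 diamonds below it, and at 4 and 10 h 17 and 15 circles are called lower.

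Over the 12 combinations of strain and time, SPAC869.04 and SPAC869.03c were most like each other among all tested genes, with Pearson r = 0.998 between group means of log2 CPM. Their ratio within a library stayed between 0.879 and 1.51 from 1 h on in both strains. The 12 points share 6 times and 2 strains, so they are not independent, and the r values describe likeness only. put4, yhb1 and SPAC869.01 followed SPAC869.04 less closely, with r = 0.89, 0.72 and 0.69. By r they stood at places 100, 606 and 750 among the tested genes, so many genes outside the members were nearer. Outside the 5 members, the genes most like SPAC869.03c were per1, an amino acid permease gene (r = 0.981), adl1, a DNA ligase gene (0.980), and isp5 (0.972). For SPAC869.04 they were per1 (0.980), adl1 (0.976) and amt1 (0.974). For put4 they were its near neighbour atd2 (0.993), the transcription factor gene SPAC25B8.11 (0.988) and the mediator subunit gene med15 (0.987). Of the 15 listings by member here and below, with per1 and adl1 listed for both SPAC869.04 and SPAC869.03c, 3 were also among the nearest by Spearman rho.

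atd2 had 331 ± 3.79 CPM in clr4D cells and 395 ± 30.1 CPM in wt cells at 1 h, and 204 ± 50.9 CPM in clr4D cells and 477 ± 13.3 CPM in wt cells at 10 h. Like put4, it was thus near its wt level in clr4D cells at 1 h and furthest below it at 10 h. per1 had 475 ± 5.68 CPM in clr4D cells and 450 ± 55.9 CPM in wt cells at 1 h, and 696 ± 14.4 CPM in clr4D cells and 1397 ± 19.6 CPM in wt cells at 10 h. At 1 h, where SPAC869.04 was at 27.1% of its wt level, per1 was not called between the strains (log2 0.08). For yhb1 the nearest were cbl1, for cystathionine beta-lyase (0.863), the peroxisome import gene pex7 (0.857) and thp1, for a uracil DNA glycosylase (0.849). For SPAC869.01 they were bun107, for a WD repeat protein (0.934), SPAC26F1.08c (0.921) and SPAC11D3.11c (0.916).

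**Figure D5:**
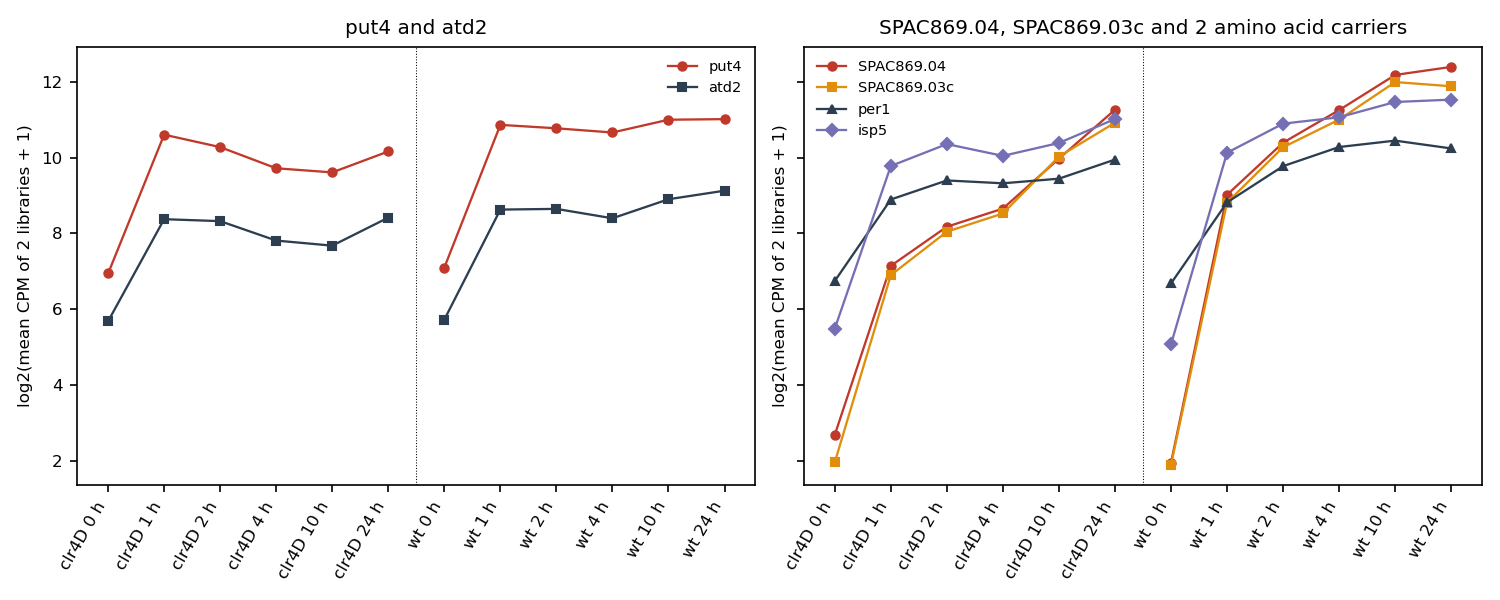
Log2 of mean CPM plus 1 (vertical) in the 12 combinations of strain and time (horizontal, clr4D left of the dotted line and wt right). The left panel shows put4 with atd2, the right panel SPAC869.04 and SPAC869.03c with per1 and isp5. Heights are not comparable between genes, because CPM is not divided by length, so only the courses can be set side by side.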

How the data were processed

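Reads were aligned with TopHat2 2.0.8 to build ASM294v2 and counted per transcript with HTSeq 0.6.1, per the submitters' processing notes; their strand setting and annotation release were not stated there. The authors deposited raw counts per feature for each library. Counts were summed to 6877 genes, and 6705 were matched to RefSeq names of assembly ASM294v3, which is another build, so no positions are given. Genes were filtered (filterByExpr), scaled by TMM and fitted with edgeR 4.0.16 in R 4.3.3 (quasi-likelihood, robust, 12 group means, 24 libraries), with Benjamini-Hochberg adjustment over 5664 genes within each comparison; the filter left out 1213 genes. SE is the absolute log2 difference over the square root of F. Likeness used group means of log2 CPM (prior count 2). The common biological coefficient of variation was 0.122, and multi-mapped reads made up 5.43 to 12.37% of the reads reported by the counter. The fit was tested on simulated data. The members, lists and named genes (the members, clr4, gaf1, SPAC869 genes, called flanking genes, the 3 largest called changes of the nitrogen list each way, and the 3 genes most like each member) were chosen with earlier results of these data known. Alternatives were size factors of DESeq2, library totals alone, no filter, DESeq2 1.42.0, a replicate block, the 4 libraries of a comparison alone, each library left out, and Spearman rho for likeness.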

Additional observations from a re-analysis of the deposited data

Results flagged for a closer look

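gln1, for glutamine synthetase, went opposite ways in the strains: its log2 change against 0 h was −0.591 in clr4D cells and 1.36 in wt cells at 4 h, and −0.936 in clr4D cells and 0.415 in wt cells at 10 h. Every library of each strain lay on its own side of the 0 h mean, and the difference between these changes was not tested. Without the second wt library of 4 h the wt change at 4 h was no longer called (log2 0.49).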

How the results depend on the processing

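No member, neighbour or nitrogen gene that the text names as called changed sign under any alternative. Whether replicate numbers mark shared cultures was not stated, and the main fit did not pair libraries by them. Correlations of deviations ran from −0.0765 to 0.333 over 66 pairs of groups (median 0.078, 23 over 0.1). Between the strains at the same time they ran from −0.039 at 0 h to 0.222 at 24 h. With the replicate block 14, 44, 107, 936, 1523 and 605 genes were called between the strains at 0, 1, 2, 4, 10 and 24 h. Without it 13, 38, 88, 850, 1354 and 498 were called. With the block 4 members were called higher at 4 h in clr4D cells. Fitting the 4 libraries of a comparison alone called 64 genes at 1 h, 92 at 4 h (0 of the nitrogen list; put4 not called) and 861 at 24 h (13 of the list), 3 of the list at 2 h, 4 and 2 of the other SPAC869 genes at 10 and 24 h, and 1805 genes in wt at 4 h against 0 h. Scaling by totals only moved the overall median to 0.26 at 4 h, turned the split there into 565 higher and 185 lower, from 294 and 556, and that at 24 h into 321 and 54, from 319 and 179. It gave a members' median of −2.12 at 4 h and −0.85 at 24 h, 0 and 11 nitrogen genes at 2 and 4 h, and 1 and 0 other SPAC869 genes at 10 and 24 h. DESeq2 called 8 genes at 0 h and 0 other SPAC869 genes at 24 h; with its size factors the 24 h split was 351 and 106. Without the filter 2 nitrogen genes were called at 2 h. Spearman rho kept 3 of the 15 listings of genes most like each member. Over the libraries left out in turn, genes called ranged 0 to 8 at 0 h, 19 to 40 at 1 h, 52 to 75 at 2 h, 261 to 1325 at 4 h, 713 to 1092 at 10 h and 199 to 347 at 24 h. The members' median ranged −0.3231 to 0.0 at 0 h, −2.03 to −1.63 at 1 h and −2.19 to −1.78 at 10 h, and members called at 24 h 2 to 4. Nitrogen genes called ranged 0 to 1 at 2 h, 9 to 24 at 4 h, 9 to 14 at 10 h and 2 to 4 at 24 h, and other SPAC869 genes 0 to 2 at 10 h and 0 to 0 at 24 h. The causes were not tested.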
